A study of Mus musculus with 5 samples.

Results

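CC chemokines are small secreted proteins that attract leukocytes, and 10 of their genes (Ccl2, Ccl3, Ccl4, Ccl5, Ccl6, Ccl7, Ccl8, Ccl9, Ccl12 and Ccl24) were followed here across the cell classes of mouse breast tumors. The 10 genes were taken by name from the 31053 genes of the deposited count matrices. Tumors came from MMTV-PyMT mice, strain FVB/N-Tg (MMTV-PyVT)634Mul/J, in which the promoter of mouse mammary tumor virus expresses the middle T antigen of polyoma virus in the mammary epithelium, and every mouse of either group carried this transgene. From 7 weeks of age, mice were given 5 mg/kg of the anti-VEGF-A antibody B20-4.1.1, or the isotype control IgG2a clone C1.18.4 at the same dose, by intraperitoneal injection 2 times a week for 6 weeks. Live cells, sorted as negative for the dead-cell dye DAPI, were tagged per tumor with multiplexing oligonucleotides, pooled by 3 tumors and sequenced as 3' single-cell RNA libraries. The isotype group held 6 tumors in 2 pools and the B20-4.1.1 group 9 tumors in 3 pools, each tumor from its own mouse. Because a pool held tumors of 1 treatment, pool and treatment cannot be told apart.

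CC chemokines act through receptors coupled to G proteins on the target cell. Ccl2, Ccl7, Ccl8 and Ccl12 belong to the monocyte chemoattractant proteins, of which Ccl2, Ccl7 and Ccl12 call Ccr2-bearing monocytes out of the blood. Ccl3 and Ccl4 are macrophage inflammatory proteins, Ccl5 is made by cytotoxic lymphocytes, and Ccl3 and Ccl5 bind Ccr1. Ccl6 and Ccl9 are rodent ligands of Ccr1, and Ccl24 is an eotaxin that binds Ccr3. In tumors, monocytes recruited through these ligands can mature into macrophages, which make chemokines themselves.

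In the GRCm38 annotation 9 of the genes sit on chromosome 11, in 2 clusters. The first cluster holds Ccl2 (chr11:82035571-82037453), Ccl7 (chr11:82045712-82047525), Ccl12 (chr11:82101845-82103400) and Ccl8 (chr11:82115185-82116799), all on the plus strand. The second holds Ccl5 (chr11:83525778-83530518), Ccl9 (chr11:83572919-83578636), Ccl6 (chr11:83587882-83593087) and Ccl3 (chr11:83647844-83649355) on the minus strand and Ccl4 (chr11:83662584-83664683) on the plus strand. Ccl24 lies apart at chr5:135569937-135573049 on the minus strand. All 10 are protein-coding. The principal transcripts of Ccl6 and Ccl9 have 4 exons and those of the other members 3. The longest run of identical bases between the transcripts of 2 members was 25 bases, between Ccl6 and Ccl9, and the next 23 bases, between Ccl2 and Ccl7.

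The RefSeq promoter table (build GRCm38.p6) held 5 of the 10 members, and the 250 bases before the start site of each are shown because neighbouring members differ in class and level below. For Ccl12 (chr11:82101595-82101844, plus strand) and Ccl8 (chr11:82114935-82115184, plus strand), capitals mark the letters TATAAA.
Ccl12: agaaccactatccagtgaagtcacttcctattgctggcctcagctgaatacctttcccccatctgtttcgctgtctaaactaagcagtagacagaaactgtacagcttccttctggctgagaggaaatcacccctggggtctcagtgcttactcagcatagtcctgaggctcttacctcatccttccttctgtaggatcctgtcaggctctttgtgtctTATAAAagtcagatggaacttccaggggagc
Ccl8: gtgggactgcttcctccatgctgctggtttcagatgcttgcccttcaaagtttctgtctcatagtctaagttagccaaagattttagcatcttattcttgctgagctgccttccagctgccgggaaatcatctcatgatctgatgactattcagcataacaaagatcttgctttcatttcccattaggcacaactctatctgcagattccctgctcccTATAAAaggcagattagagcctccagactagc
TATAAA on the sense strand between 26 and 36 bases before the start site was found in 2 of these 5 windows and in 1.73% of 32851 promoters of the same length, and TATAAA on either strand anywhere in the promoter in 12.4%. The Ccl9 window, where these letters are not marked, held TATAAA 92 bases before the start site. It also held TTTATA, the same letters on the other strand, 94 and 224 bases before that site. For Ccl9 (chr11:83578637-83578886, minus strand) and Ccl6 (chr11:83593088-83593337, minus strand), capitals mark stretches covered by runs of at least 10 bases that both windows hold.
Ccl9: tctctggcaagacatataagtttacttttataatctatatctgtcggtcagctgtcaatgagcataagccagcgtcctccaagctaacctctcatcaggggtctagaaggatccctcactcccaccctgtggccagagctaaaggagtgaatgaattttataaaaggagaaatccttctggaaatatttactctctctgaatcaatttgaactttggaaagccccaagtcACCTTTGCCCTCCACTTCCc
Ccl6: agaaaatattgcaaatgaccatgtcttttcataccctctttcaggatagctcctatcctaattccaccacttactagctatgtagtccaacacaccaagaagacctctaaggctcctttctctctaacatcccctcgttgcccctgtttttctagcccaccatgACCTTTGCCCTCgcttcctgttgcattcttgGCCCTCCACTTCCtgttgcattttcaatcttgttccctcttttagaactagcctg
The marked stretch of Ccl9 was 19 bases long, and Ccl6 held its parts as 2 separate runs, the longer of 13 bases. Of 32849 other promoters, 6.51% shared a run of at least 10 bases with the Ccl9 window. For Ccl3 (chr11:83649379-83649628, minus strand) nothing is marked.
Ccl3: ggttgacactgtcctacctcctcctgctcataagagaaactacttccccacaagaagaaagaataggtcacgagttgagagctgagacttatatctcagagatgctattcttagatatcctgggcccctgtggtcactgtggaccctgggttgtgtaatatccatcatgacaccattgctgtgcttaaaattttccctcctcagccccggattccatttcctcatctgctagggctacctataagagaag
These matches describe letters in the sequence and not sites of binding.

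Cells between a lower limit of 2500 and an upper limit of UMIs (unique molecular identifiers, each standing for 1 captured transcript) and with at most 20% mitochondrial UMIs were kept, 19533 of 30340. Each tumor gave 511 to 2341 kept cells with a median of 4043 to 10591 UMIs. In the first isotype pool 52.4% of deposited cells fell under the UMI minimum, against 14.8% to 29.8% in the other pools. Cells were gated into classes by counting distinct markers, none of which was a chemokine or a chemokine receptor. The gates gave 13708 epithelial-like, 1244 macrophage-like, 274 monocyte-like, 89 neutrophil-like, 42 dendritic-like, 2074 T-like, 708 cytotoxic lymphocyte-like, 177 B-like, 17 endothelial-like and 59 fibroblast-like cells. Apoe, C1qa, C1qc and C1qb led the macrophage-like cells, and Fn1, Plac8 and Lyz2, with Ccl6 itself, were among the leading genes of the monocyte-like cells. Of these, C1qa, C1qb, C1qc and Lyz2 are gate markers, so their rank follows from the gating. Mononuclear phagocyte-like cells, 1609 in all, are the macrophage-like and monocyte-like cells with 91 cells between the 2 gates. In 3 B20-4.1.1 tumors, tumor 3 of pool 1 and tumors 1 and 3 of pool 2, over 50% of kept cells were T-like. Treatment comparisons at a minimum of 20 cells were also run without these tumors, and comparisons between classes were not.

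Levels are UMIs of a gene per 10000 UMIs of the class. Since 3' counting gives 1 UMI per transcript whatever its length, levels of different members can be set side by side on this scale. Mononuclear phagocyte-like cells held most transcripts of 8 members: 82.3% of all Ccl2 UMIs, 84.6% of Ccl3, 78.7% of Ccl4, 85.5% of Ccl6, 67.0% of Ccl7, 78.1% of Ccl9, 84.9% of Ccl12 and 92.2% of Ccl24. Ccl8 was shared between these cells, with 56.5% of its UMIs, and the 59 fibroblast-like cells, with 28.3%. Ccl5 stood apart with 2.81% in mononuclear phagocyte-like cells, 32.3% in cytotoxic lymphocyte-like cells, 25.1% in T-like cells and 21.5% in the 364 cells that passed no gate. These shares are pooled over tumors. By tumor, the share in mononuclear phagocyte-like cells ran from 0% to 97.2% for Ccl7 and from 0% to 94.8% for Ccl8. It ran from 22.4% to 97.7% for Ccl12 and, in the 11 tumors with a Ccl24 UMI, from 0% to 100% for Ccl24.

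**Figure D1:**
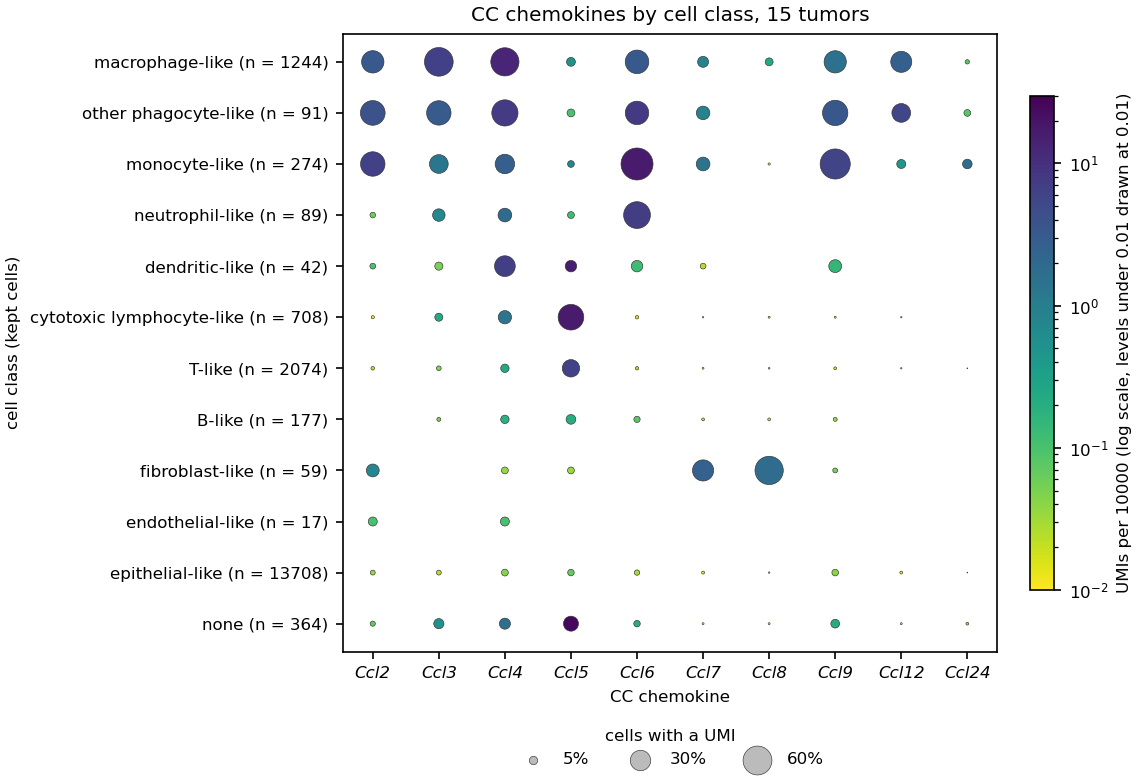
Level of each CC chemokine by cell class, with the color of a point giving UMIs per 10000 on a log scale and its size the percent of cells with at least 1 UMI, over all 15 tumors. Most members are darkest in the phagocyte classes, Ccl5 is darkest in cells without a class, cytotoxic lymphocyte-like and dendritic-like cells, and Ccl7 and Ccl8 are also detected in fibroblast-like cells.

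Macrophage-like cells were led by Ccl4 and Ccl3. Ccl4 was at 13.2 UMIs per 10000 (95% Poisson interval 13.01 to 13.48) with a UMI in 57.2% of cells, and Ccl3 at 6.52 (6.35 to 6.68) with a UMI in 59.2%. Ccl6 at 3.36, Ccl2 at 3.30, Ccl12 at 2.69 and Ccl9 at 1.58 followed, each with a UMI in 31.8% to 40.0% of macrophage-like cells. Ccl7 at 0.857, Ccl5 at 0.526, Ccl8 at 0.235 and Ccl24 at 0.0798 were found in at most 8.68% of them. The Poisson intervals cover counting error only, and the spread between tumors was wider.

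Monocyte-like cells had another order. Ccl6 led at 16.8 UMIs per 10000 (95% Poisson interval 16.2 to 17.4) with a UMI in 73.7% of cells, followed by Ccl2 at 6.55 in 43.1% and Ccl9 at 6.08 in 65.3%. Ccl4 was at 2.78 and Ccl3 at 1.30 in these cells. Ccl24 was at 1.77 but in 6.57% of cells: 267 of the 323 Ccl24 UMIs in monocyte-like cells came from 1 cell of isotype pool 2 tumor 2, which alone held 61.4% of the 435 Ccl24 UMIs of all kept cells.

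Outside the mononuclear phagocytes single members stood out. Neutrophil-like cells had Ccl6 at 7.21 UMIs per 10000 in 51.7% of 89 cells, while Ccl7, Ccl8, Ccl9, Ccl12 and Ccl24 had no UMI there, which allows levels up to 0.108 by the exact Poisson interval. Fibroblast-like cells had Ccl7 at 2.56 in 32.2% of cells and Ccl8 at 1.85 in 57.6%, and 24 of these 59 cells came from B20-4.1.1 pool 1 tumor 1. Among fibroblast-like cells 2 held 50% of the Ccl7 UMIs, whereas 6 were needed for 50% of the Ccl8 UMIs. Dendritic-like cells had Ccl4 at 6.87 in 31.0% of 42 cells and Ccl5 at 16.0, all of it in 4 cells.

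Free RNA can give UMIs in cells that do not make a transcript, so shares were read against T-like cells, which should lack most of these genes. In T-like cells (median 3817 UMIs, against 6503 in macrophage-like cells) a UMI of Ccl2 was found in 0.916% of cells, of Ccl6 in 0.820%, of Ccl9 in 0.579%, of Ccl7 in 0.241% and of Ccl12 in 0.145%. After every cell was thinned to 2500 UMIs, the share with Ccl2 was 25.0% in the macrophage-like and 0.675% in the T-like class, and that with Ccl12 19.9% and 0.0482%. The phagocyte shares of these members therefore lay above the T-like shares at equal depth.

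Transcripts of several members were concentrated in few cells. The cells with the highest counts that together held 50% of the Ccl6 UMIs of macrophage-like cells numbered 17 of 1244, and for Ccl2 47, for Ccl4 97 and for Ccl3 117. For Ccl5, 2 macrophage-like cells held 60.3% of the UMIs of the class, 194 UMIs in a cell of B20-4.1.1 pool 2 tumor 2 and 96 in a cell of B20-4.1.1 pool 1 tumor 2. For Ccl8, 1 of the 12 macrophage-like cells of B20-4.1.1 pool 1 tumor 3 held 59 UMIs, 27.4% of the class total.

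The 2 phagocyte classes were set side by side tumor by tumor, for the 4 tumors where each class had 20 cells or more (isotype pool 1 tumor 2, isotype pool 2 tumors 1 and 2, B20-4.1.1 pool 3 tumor 3). All 10 members could be tested, and 8 passed (4 higher and 4 lower in macrophage-like cells) where 14.2% of the 5421 genes tested did. Ccl3, Ccl4 and the monocyte chemoattractants Ccl8 and Ccl12 were higher in macrophage-like cells. Ccl6, Ccl9, Ccl5 and Ccl24 were higher in monocyte-like cells. The median log2 fold change of the members was -0.29, against 0.00075 over all genes tested, and it was -1.19 without isotype pool 1, -0.63 without isotype pool 2, 0.23 without B20-4.1.1 pool 3 and -1.03 with thinned cells. The test was edgeR's quasi-likelihood test with the tumor as a block and Benjamini-Hochberg adjustment over all genes tested.

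Ccl3 in macrophage-like cells was at 8.73, 5.36, 3.47 and 3.98 UMIs per 10000 in the 4 tumors in the order given, and in monocyte-like cells of the same tumors at 1.83, 0.994, 0.505 and 0.378. Ccl3 was thus higher in macrophage-like cells in 4 of 4 tumors, with no overlap between the classes (log2 fold change 2.62, SE 0.207, edgeR adjusted p = 4.79e-06). Ccl4 was at 15.3, 9.17, 7.38 and 10.9 in macrophage-like and at 3.61, 3.19, 1.08 and 3.16 in monocyte-like cells, again without overlap (2.01, SE 0.206, edgeR adjusted p = 2.99e-05). Ccl6 ran the other way in 4 of 4 tumors. Its levels were 1.58, 9.72, 11.0 and 9.39 in macrophage-like and 4.59, 30.5, 24.6 and 21.3 in monocyte-like cells, so that the classes overlapped across tumors but not within one (-1.37, SE 0.151, edgeR adjusted p = 5.53e-05). These 3 members passed the test under every alternative run.

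Ccl9 was at 1.48, 2.72, 2.80 and 3.04 in macrophage-like and at 3.37, 7.27, 9.96 and 4.16 in monocyte-like cells. It was lower in macrophage-like cells in 4 of 4 tumors (-1.22, SE 0.196, edgeR adjusted p = 0.000881), but not past the test under the stricter gate (-0.84) or without isotype pool 2 (-0.85). Ccl12, at 3.46, 1.66, 3.08 and 4.50 in macrophage-like cells, had no UMI in the monocyte-like cells of 2 tumors and was at 1.15 and 2.27 in the others (2.25, SE 0.645, edgeR adjusted p = 0.0320). The call for Ccl12 was lost without isotype pool 1 (1.65) and without isotype pool 2 (2.28), and DESeq2 gave 4.57 with an adjusted p of 0.135. Ccl8 had 103 UMIs in macrophage-like and 1 UMI in monocyte-like cells of these tumors, a ratio of levels of 32.2 with an exact 95% counting interval of 5.65 to 1280. This interval pools the tumors and leaves out the spread between tumors and cells. In macrophage-like cells 1 cell held 25 of the 55 Ccl8 UMIs of isotype pool 1 tumor 2, and 1 held 18 of 30 in isotype pool 2 tumor 1. With the tumor as a block the log2 fold change was 4.58 (SE 0.845, edgeR adjusted p = 0.00232). Ccl8 was too low for the test under the stricter gate, at 10 cells, thinned, capped and without either isotype pool.

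The monocyte-side calls for Ccl5 and Ccl24 drew on few cells. Ccl5 was at 0.132, 0.341, 0.111 and 0.661 in macrophage-like and at 0.0406, 3.97, 0 and 2.36 in monocyte-like cells, and was lower in macrophage-like cells in 2 of 4 tumors (-1.92, SE 0.552, edgeR adjusted p = 0.0333). All 76 Ccl5 UMIs behind the value of 3.97 came from 1 cell, and with each cell's count capped at 10 UMIs the log2 fold change was -0.32 (edgeR adjusted p = 0.768). The Ccl5 call was also lost without isotype pool 2 (-1.30), without B20-4.1.1 pool 3 (-1.89) and with a minimum of 10 cells (-0.23), while DESeq2 gave -0.39. Ccl24 (-3.31, SE 0.814, edgeR adjusted p = 0.0162) was -1.88 with capped counts (edgeR adjusted p = 0.0312), -2.99 by DESeq2 without passing, and -0.63 without isotype pool 2 (edgeR adjusted p = 0.741). Ccl2 and Ccl7, which recruit monocytes, did not pass in the main test. Ccl2 was at 2.92, 5.06, 3.02 and 2.61 in macrophage-like and 1.50, 6.48, 5.56 and 12.99 in monocyte-like cells (-0.70, SE 0.373, edgeR adjusted p = 0.260), and Ccl7 differed by 0.12 (SE 0.497, edgeR adjusted p = 0.928). Ccl2 passed without isotype pool 1 (-1.19, edgeR adjusted p = 0.0156), with thinned cells (-1.03) and with no filter on low counts (-0.69), and was -0.11 without B20-4.1.1 pool 3.

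**Figure D2:**
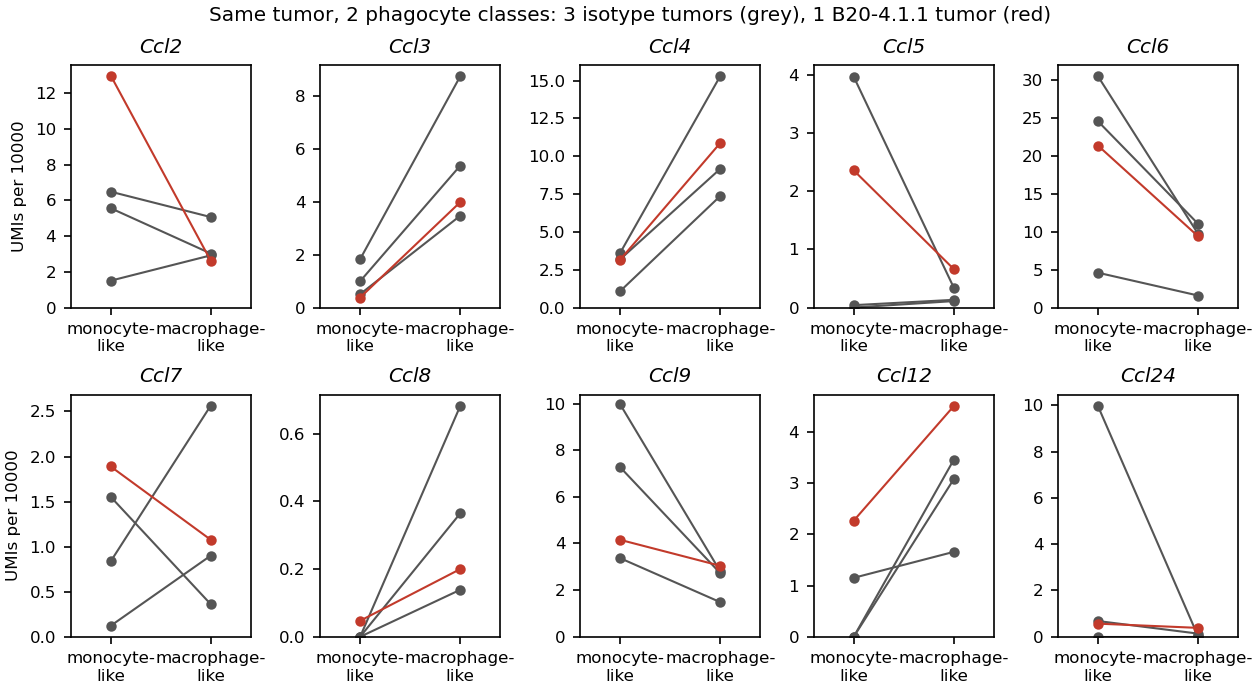
Levels of the members (UMIs per 10000) in macrophage-like and monocyte-like cells of the same tumor, with a line joining the 2 classes of each of 3 isotype tumors (grey) and 1 B20-4.1.1 tumor (red). Lines of Ccl3 and Ccl4 rise from monocyte-like to macrophage-like cells in 4 of 4 tumors and those of Ccl6 and Ccl9 fall in 4 of 4, while lines of Ccl2 and Ccl7 run both ways.

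Of the 14 CC chemokine receptors listed with the members, 4 could be tested in this comparison and 1 passed, in the lower direction: Ccr2, the receptor of Ccl2, Ccl7 and Ccl12. Its levels were 1.26, 2.63, 3.61 and 2.06 in macrophage-like and 8.69, 7.22, 11.0 and 4.91 in monocyte-like cells (log2 fold change -1.78, SE 0.223, edgeR adjusted p = 0.000158). Ccr1, the receptor of Ccl3, Ccl5, Ccl6 and Ccl9, differed by 0.67 (edgeR adjusted p = 0.0528) and passed as higher at a minimum of 10 cells (0.71, edgeR adjusted p = 0.000655). With no filter on low counts, with thinned or capped counts and without B20-4.1.1 pool 3, 1 receptor passed as higher in each. Over all tumors Ccr1 was found in 77.6% of macrophage-like, 53.6% of monocyte-like and 87.6% of neutrophil-like cells. Ccr3, the receptor of Ccl24, was found in at most 0.365% of any gated class. Of the 10 other CC ligands listed, 1 could be tested, and it was lower in macrophage-like cells: Ccl17, a ligand of Ccr4 (-7.15, SE 0.620, edgeR adjusted p = 2.75e-05). DESeq2 did not call Ccl17, and with thinned cells, without isotype pool 1 and without B20-4.1.1 pool 3 it was not tested.

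Lymphocyte classes held Ccl5, Ccl4 and Ccl3. Cytotoxic lymphocyte-like cells had Ccl5 at 16.7 UMIs per 10000 in 47.3% of cells, Ccl4 at 1.35 in 12.7% and Ccl3 at 0.231 in 4.66%, and T-like cells had Ccl5 at 6.17 in 21.8%, Ccl4 at 0.230 in 5.06% and Ccl3 at 0.0477 in 1.59%. The 2 classes were compared inside 11 tumors (5 isotype, 6 B20-4.1.1) where each had 20 cells or more. Among them, B20-4.1.1 pool 1 tumor 3 and pool 2 tumor 3 were rich in T-like cells, and the comparison was not run without them. In these tumors Ccl4 was at 4.41 and 1.83 in cytotoxic lymphocyte-like and at 0.113 and 0.116 in T-like cells. Of the 3 members that could be tested, 2 passed, both higher in cytotoxic lymphocyte-like cells, where 9.57% of 5818 genes tested passed. The other 7 members had too few UMIs in lymphocytes to be tested.

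Ccl4 ranged from 0.123 to 4.41 in cytotoxic lymphocyte-like and from 0.0708 to 1.16 in T-like cells. It was higher in the cytotoxic class in 11 of 11 tumors (log2 fold change 2.25, SE 0.411, edgeR adjusted p = 0.000992). Some margins were small: isotype pool 1 tumor 3 had 2 Ccl4 UMIs in each class. In B20-4.1.1 pool 1 tumor 2 the levels were 0.595 and 0.557. The share of cells with a Ccl4 UMI was lower in the cytotoxic class in that tumor (7.41% against 16.3%). It was also lower in B20-4.1.1 pool 2 tumor 2 (13.9% against 20.4%), and higher in the other tumors. Ccl3 ranged from 0 to 1.25 against 0 to 0.239 and was higher in 9 of 11 tumors (2.56, SE 0.717, edgeR adjusted p = 0.0261). Both genes were concentrated in few of the 708 cytotoxic lymphocyte-like cells of all tumors. The 10 cells with the most UMIs of the gene held 69.3% of the Ccl4 and 74.7% of the Ccl3 UMIs. In the 2074 T-like cells the same shares were 41.5% and 46.5%. Ccl5 ranged from 2.52 to 34.5 against 2.83 to 23.2 and was higher in 8 of 11 tumors, short of the threshold (0.70, SE 0.310, edgeR adjusted p = 0.181). Ccl5 did pass with a minimum of 10 cells (0.85) and with no filter on low counts (0.70). With each cell capped at 10 UMIs, Ccl4 differed by 1.20 and still passed, and Ccl3 by 2.06 with an edgeR adjusted p of 0.0549. Under the stricter gate no member passed (Ccl4 1.15, edgeR adjusted p = 0.0930). The call for Ccl3 was also lost without isotype pool 2 (2.29) and without B20-4.1.1 pool 2 (2.28). Of 3 receptors tested 1 passed: Ccr7, the lymph node homing receptor, was lower in cytotoxic cells in 11 of 11 tumors (-3.02, edgeR adjusted p = 1.64e-07). Of the listed other ligands Ccl1, a ligand of Ccr8, was tested and passed, at 2.59 (edgeR adjusted p = 0.0463). DESeq2 did not call Ccl1, and with thinned or capped counts, without isotype pool 2 and without B20-4.1.1 pool 3 it was not tested.

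**Figure D3:**
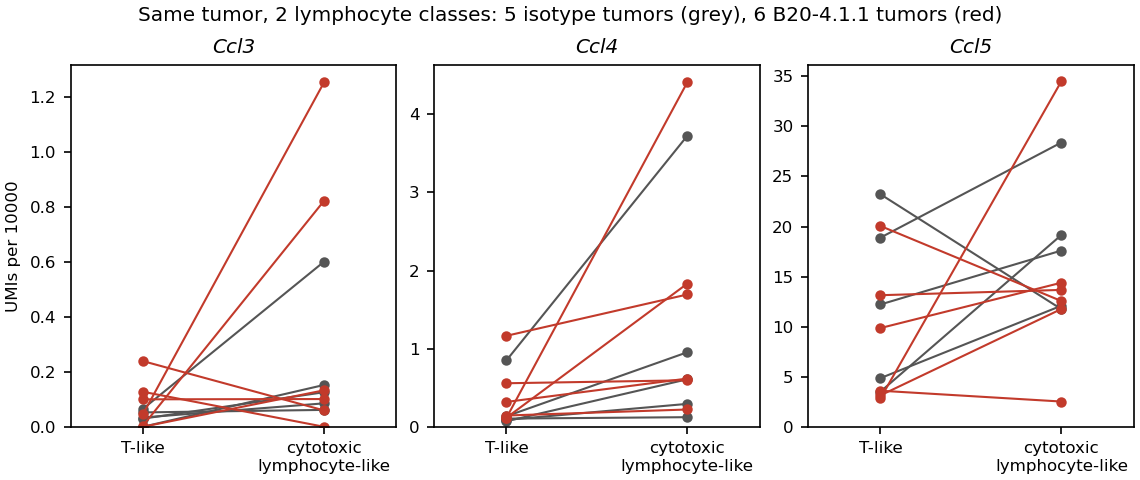
Levels of Ccl3, Ccl4 and Ccl5 (UMIs per 10000) in T-like and cytotoxic lymphocyte-like cells, with a line joining the classes of each of 5 isotype tumors (grey) and 6 B20-4.1.1 tumors (red). Ccl4 is higher in the cytotoxic class in 11 of 11 tumors, in some by a small margin, and Ccl5 in 8 of 11.

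Lymphocyte levels of Ccl4 were also read against free RNA. From the C1qa, C1qb and C1qc UMIs of each class, and the ratio of Ccl4 to these genes in mononuclear phagocyte-like cells of the same tumor, 24.4 Ccl4 UMIs would be found in T-like cells. The observed number was 200, above the calculated one in 13 of 13 tumors. For Ccl3 in T-like cells 38 UMIs were observed and 11.2 calculated, and for Ccl6 19 and 22.8.

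Cells without a class held Ccl5 at 25.5 UMIs per 10000, the highest level of any member in any class, in 16.2% of 364 cells. There 24 cells with at least 50 Ccl5 UMIs held 91.1% of the UMIs, and the cells came from 11 tumors, 8 cells from isotype and 16 from B20-4.1.1 tumors. Of these 24 cells, 95.8% had a UMI of Ccr7, 91.7% of Fscn1 and 79.2% of the chemokine Ccl22, and 4.17% of the T cell gene Cd3e. The 4 dendritic-like cells with as many Ccl5 UMIs all had Ccr7, Fscn1 and Ccl22. Fscn1 is a dendritic gate marker, Cd3e a T gate marker and Nkg7 a cytotoxic gate marker. All 20 T-like cells with at least 50 Ccl5 UMIs had Cd3e and Nkg7, and none of the 3 macrophage-like and monocyte-like cells with as many Ccl5 UMIs had a UMI of Cd3e or Nkg7.

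Treatment was compared next, to ask whether the chemokines of a class differed between B20-4.1.1 and isotype tumors. In mononuclear phagocyte-like cells (6 isotype and 9 B20-4.1.1 tumors) none of the 9 members tested passed by edgeR, where 0.0713% of 7015 genes did. No member had an unadjusted p under 0.05, as 678 of the 7015 genes did. DESeq2 also called none. The members' median log2 fold change was -0.072, with 4 of 9 above 0, against a median of 0.012 over all genes tested. This median turned with the pool left out: it was 0.61 without isotype pool 2 (7 of 10 above 0), 0.21 without B20-4.1.1 pool 1 (6 of 9), 0.040 without isotype pool 1 (5 of 10), -0.39 without B20-4.1.1 pool 2 (3 of 9) and -0.043 without B20-4.1.1 pool 3 (2 of 8). A p that misses the threshold does not show that levels were alike, since the spread between tumors was wide.

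Ccl2 ranged in mononuclear phagocyte-like cells from 2.65 to 5.60 UMIs per 10000 (median 3.19) in isotype and from 2.61 to 8.79 (median 4.67) in B20-4.1.1 tumors. The groups overlapped and 7 of 9 B20-4.1.1 tumors were above the isotype mean (log2 fold change 0.44, SE 0.231, edgeR adjusted p = 0.552). Ccl3 ranged from 2.17 to 9.15 (median 6.15) in isotype and from 1.52 to 7.16 (median 3.11) in B20-4.1.1 tumors. For Ccl3, 1 of 9 B20-4.1.1 tumors was above the isotype mean (-0.56, SE 0.273, edgeR adjusted p = 0.524). Ccl4 ranged from 4.56 to 16.0 (median 12.3) and from 2.69 to 20.8 (median 7.83), which differed by -0.24 on the log2 scale (SE 0.353, edgeR adjusted p = 0.882).

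Ccl6 split the isotype tumors. It was at 1.36, 2.03 and 2.38 in the 3 tumors of isotype pool 1 and at 16.2, 19.1 and 1.69 in those of pool 2, while B20-4.1.1 tumors lay between 1.92 and 15.4 (median 6.80). The groups overlapped fully (0.08, SE 0.555, edgeR adjusted p = 0.993). Ccl12 ranged from 1.38 to 2.95 (median 1.97) in isotype and from 0.178 to 5.43 (median 2.74) in B20-4.1.1 tumors, where 3 of 9 tumors were above and 4 below all isotype tumors (0.22, SE 0.451, edgeR adjusted p = 0.922). Ccl9 ranged from 1.44 to 6.16 and from 1.10 to 4.49, and Ccl7 from 0.421 to 2.20 and from 0 to 3.09. Ccl5 had the largest positive difference (1.52, SE 0.741, unadjusted p = 0.0532, edgeR adjusted p = 0.524), with 0.0571 to 1.32 UMIs per 10000 in isotype and 0 to 3.30 in B20-4.1.1 tumors. Ccl24 had no UMI in 3 of 6 isotype and 4 of 9 B20-4.1.1 tumors (-1.64, SE 1.12, edgeR adjusted p = 0.665). Ccl8 was too low to be tested and ranged from 0.0685 to 0.436 and from 0 to 3.50.

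Leaving out isotype pool 2 changed these results. Without it, 540 of 7621 genes passed, among them 3 members, on 3 isotype tumors of 1 pool. Ccl6 was at a log2 fold change of 2.02 (edgeR adjusted p = 0.0192), Ccl3 at -0.96 (adjusted p = 0.0423) and Ccl24 at 4.32 (adjusted p = 0.0459). Those 3 isotype tumors held 0, 0 and 6 Ccl24 UMIs over all kept cells. Without isotype pool 1, Ccl6 was -0.74 and Ccl3 -0.018, and no member passed. Monocyte-like cells made up 6.29% to 35.3% of the mononuclear phagocyte-like cells of isotype tumors (mean 16.6% ± 12.5, SD, n = 6) and 8.75% to 42.9% of those of B20-4.1.1 tumors (24.6% ± 10.8, SD, n = 9). The part of this share in the phagocyte levels of Ccl3, Ccl4, Ccl6 and Ccl9, which differed between the 2 classes, was not tested.

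**Figure D4:**
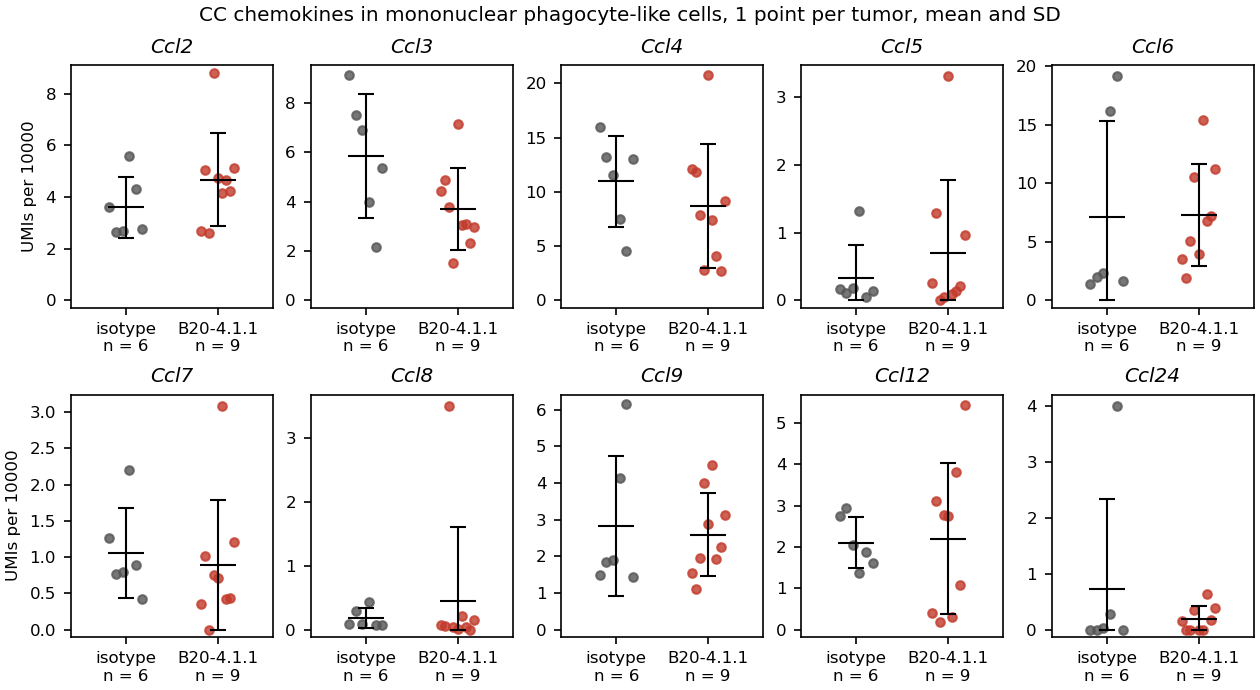
Level of each member (UMIs per 10000) in mononuclear phagocyte-like cells, 1 point per tumor, for 6 isotype (grey) and 9 B20-4.1.1 (red) tumors, with the mean and SD (lower bars are cut at 0). The 2 groups overlap for every member, and single tumors set the highest values of Ccl5, Ccl7, Ccl8 and Ccl24.

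Within macrophage-like cells alone (6 isotype and 7 B20-4.1.1 tumors with at least 20 cells) none of the 8 members tested passed by edgeR, where 0.0454% of 6601 genes did, and DESeq2 called none. An unadjusted p under 0.05 was reached by 727 of the 6601 genes and by 1 member, Ccl5. It ranged from 0.0765 to 0.341 (median 0.150) in isotype and from 0.0499 to 4.35 (median 0.315) in B20-4.1.1 tumors, with 5 of 7 above the isotype mean (log2 fold change 2.95, SE 0.653, unadjusted p = 0.000184, edgeR adjusted p = 0.0867). Capped at 10 UMIs per cell the difference was 1.04 (edgeR adjusted p = 0.205). Ccl5 passed with no filter on low counts (2.91, with 64 of 16035 genes passing), without isotype pool 2 (3.27, 612 of 7239) and without B20-4.1.1 pool 3 (3.48, 10 of 7144). Across its alternatives the adjusted p from edgeR, DESeq2 or voom ran from 2.39e-05 to 0.83. The lymphocyte marker genes summed to 0.0959 ± 0.0461 UMIs per 10000 in macrophage-like cells of isotype tumors (SD, n = 6) and 0.254 ± 0.123 in those of B20-4.1.1 tumors (SD, n = 9), and their part in the Ccl5 level was not tested.

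Ccl4 in macrophage-like cells ranged from 7.38 to 17.3 (median 13.1) in isotype and from 3.34 to 26.3 (median 10.9) in B20-4.1.1 tumors (-0.027, SE 0.317, edgeR adjusted p = 0.987). Ccl3 ranged from 3.47 to 9.82 (median 6.63) and from 3.09 to 8.84 (median 4.74), a difference of -0.41 (SE 0.228, edgeR adjusted p = 0.514). Ccl2 differed by 0.31 (SE 0.232) and Ccl12 by 0.056 (SE 0.359). In monocyte-like cells the minimum of 20 cells left 3 isotype tumors and 1 B20-4.1.1 tumor, too few to test. With a minimum of 10 cells (5 and 6 tumors) none of the 6 members tested passed by edgeR (0 of 1886 genes, with 133 at an unadjusted p under 0.05), and Ccl7 had the smallest unadjusted p (1.86, SE 0.813, unadjusted p = 0.0378, edgeR adjusted p = 0.642). The difference in treatment effect between the 2 classes, tested as an interaction at this minimum, was called for 0 of 5382 genes by edgeR, with 194 genes at an unadjusted p under 0.05, among them the members Ccl24, Ccl7 and Ccl5.

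Receptors were compared between treatments in the same way. In mononuclear phagocyte-like and in macrophage-like cells 5 receptors were tested in each and none passed by edgeR or reached an unadjusted p under 0.05. Ccr1 differed by 0.24 (SE 0.126) and Ccr2 by -0.074 (SE 0.323) in mononuclear phagocyte-like cells, and Ccr1 in macrophage-like cells ranged from 2.72 to 3.96 in isotype and from 3.09 to 3.78 UMIs per 10000 in B20-4.1.1 tumors. In monocyte-like cells with a minimum of 10 cells Ccr1 differed by 0.63 (unadjusted p = 0.0315) and Ccr2 by -0.62 (unadjusted p = 0.0327), both with an edgeR adjusted p of 0.623. In T-like cells Ccr7 differed by 2.02 (SE 0.666, unadjusted p = 0.00760, edgeR adjusted p = 0.0862), and 1 receptor passed as higher there without B20-4.1.1 pool 1 and 1 without B20-4.1.1 pool 3. Without the tumors rich in T-like cells 0 of 4040 genes passed by edgeR in this class. T-like Ccr7 was at 2.32 in B20-4.1.1 pool 1 tumor 3 and 4.79 in pool 2 tumor 3, which are rich in T-like cells. In the other tumors of the lymphocyte comparison it was at 0.144 to 1.10 in B20-4.1.1 and 0.269 to 0.496 in isotype tumors.

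In T-like cells (6 isotype and 7 B20-4.1.1 tumors) Ccl5 was the only member with enough UMIs to test, and it did not pass, where 3.54% of 4038 genes did. It ranged from 3.50 to 23.2 (median 11.1) in isotype and from 2.83 to 20.1 (median 3.60) in B20-4.1.1 tumors (log2 fold change -0.56, SE 0.497, edgeR adjusted p = 0.540). The 3 tumors with over 50% T-like cells had Ccl5 at 3.14, 3.01 and 2.83, below all isotype tumors, and without them the difference was -0.0081. Without isotype pool 2 it was 0.48. In cytotoxic lymphocyte-like cells (5 and 7 tumors) neither of the 2 members tested passed by edgeR or DESeq2, where 0.0694% of 4322 genes passed by edgeR. Neither reached an unadjusted p under 0.05, as 287 of the 4322 genes did. Ccl5 ranged there from 11.7 to 28.4 and from 2.52 to 34.5 (-0.33, SE 0.338), and Ccl4 differed by -0.010 (SE 0.545).

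Epithelial-like cells, the class of the tumor cells, had each member at 0.0658 UMIs per 10000 or less when pooled over all tumors. Of 6 members tested 1 passed by edgeR, where 14.2% of 12298 genes did. An unadjusted p under 0.05 was reached by 3838 of these genes and by 4 members: Ccl9, Ccl3, Ccl4 (-0.85, unadjusted p = 0.0424) and Ccl5 (0.97, unadjusted p = 0.0478). Ccl9 ranged from 0.0223 to 0.0383 (median 0.0326) in isotype and from 0.00903 to 0.0812 (median 0.0555) in B20-4.1.1 tumors, with 8 of 9 above the isotype mean (log2 fold change 0.86, SE 0.271, edgeR adjusted p = 0.0410). DESeq2 called Ccl9 (0.87) and also Ccl3 (-1.80, DESeq2 adjusted p = 0.0446), where it called 2141 of 12298 genes. By edgeR Ccl3 differed by -1.59 (adjusted p = 0.0738), by -0.23 without isotype pool 1 and by -2.25 without isotype pool 2. Without isotype pool 2 both Ccl3 (adjusted p = 0.00296) and Ccl4 (-1.44, adjusted p = 0.00261) passed as lower, where 5513 of 12629 genes passed in either direction. Without B20-4.1.1 pool 3 Ccl5 passed as higher (1.48, edgeR adjusted p = 0.0204), where 1050 of 12128 genes passed. The call for Ccl9 was lost without isotype pool 1 (0.88), without isotype pool 2 (0.87), without B20-4.1.1 pool 2 (0.94) or pool 3 (0.46), with no filter (0.85), under the stricter gate (0.77), with thinned cells (0.92), with voom and pool as a random block (0.97) and with sums per pool (0.86). Of 3 other ligands tested in this class Ccl25, a ligand of Ccr9, was lower (-0.39, SE 0.0991, edgeR adjusted p = 0.0160). With thinned cells, voom, sums per pool, without isotype pool 1 and without B20-4.1.1 pool 3 none of these other ligands passed as lower.

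The members in epithelial-like cells were likewise set against free RNA of mononuclear phagocyte-like cells. From the C1q genes in these cells 57.2 Ccl9 UMIs were calculated, and 561 were observed, a ratio of 9.82 (6.1 in isotype and 17.8 in B20-4.1.1 tumors), above the calculated number in 15 of 15 tumors. The same ratio was 7.35 for Ccl7, 5.15 for Ccl2, 3.23 for Ccl6, 3.88 for Ccl8, 2.08 for Ccl3, 2.04 for Ccl4 and 1.44 for Ccl12. For Ccl24 it was 1.02 (0.603 in isotype tumors), with 7 UMIs observed. For Ccl5, set against T cell genes in place of the C1q genes, it was 2.40. The C1q genes summed to 0.246 ± 0.197 UMIs per 10000 in epithelial-like cells of isotype tumors (SD, n = 6) and 0.152 ± 0.0572 in those of B20-4.1.1 tumors (SD, n = 9). The part of free RNA from other classes in these levels was not tested.

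The 3 highest correlations between members across single cells were each between neighbouring genes, while other neighbours had lower values. Across 1244 macrophage-like cells thinned to 2500 UMIs, with tumor means removed, Pearson's r between log2 counts was 0.61 for Ccl3 and Ccl4, whose gene bodies lie 13228 bases apart, 0.48 for Ccl6 and Ccl9 (9245 bases apart) and 0.46 for Ccl2 and Ccl7 (8258 bases apart). Ccl7 and Ccl12, 54319 bases apart, had r of 0.21. Other neighbours within a cluster had r near 0: 0.068 for Ccl12 and Ccl8, 11784 bases apart, 0.039 for Ccl5 and Ccl9 and -0.092 for Ccl6 and Ccl3. The median over the 36 pairs of members on chromosome 11 was 0.056, with 0.063 over the 16 pairs within a cluster and 0.053 over the 20 pairs between clusters. Ccl24, on chromosome 5, had r of 0.39 with Ccl6 and 0.30 with Ccl9, resting on 11 thinned cells with a Ccl24 UMI. Cells share a library and a fixed depth, and r is given as a description with no test. In the 11 tumors with at least 50 macrophage-like cells r ranged from 0.37 to 0.67 for Ccl3 and Ccl4, from 0.17 to 0.81 for Ccl6 and Ccl9 and from 0.25 to 0.62 for Ccl2 and Ccl7. Of cells with a Ccl3 UMI 72.6% also had Ccl4, against 47.7% of all macrophage-like cells. Ccl2 and Ccl12, in the same cluster, had r of 0.30, while Ccl6 and Ccl9 had r of -0.12 to -0.092 with Ccl3 and Ccl4, members of their own cluster. In 274 monocyte-like cells r was 0.51 for Ccl2 and Ccl7, 0.46 for Ccl6 and Ccl9 and 0.44 for Ccl3 and Ccl4.

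**Figure D5:**
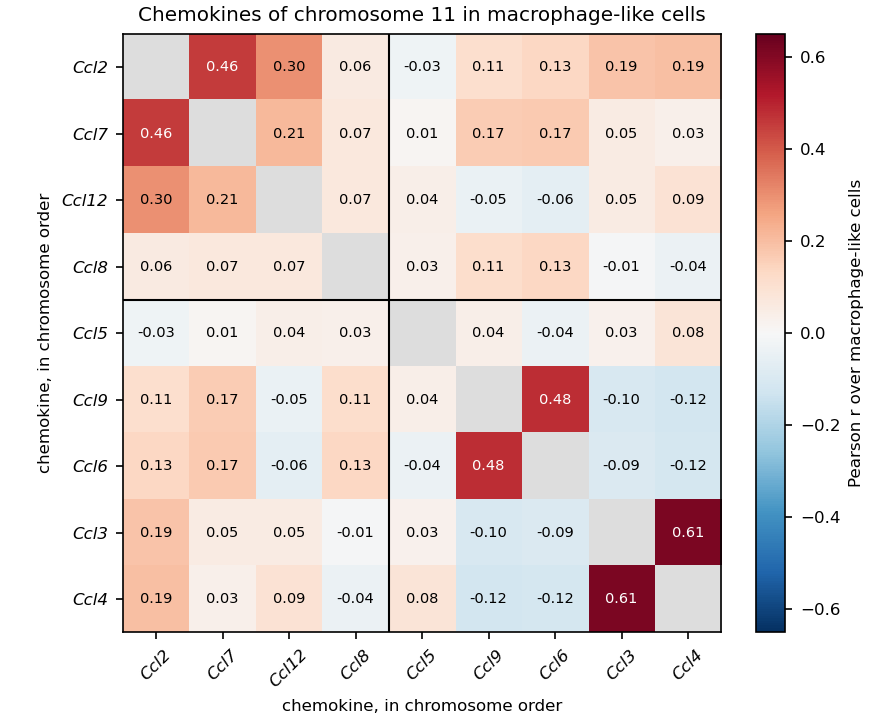
Pearson correlation of log2 thinned counts between members across 1244 macrophage-like cells, with tumor means removed and genes in chromosomal order. The fields for Ccl3 with Ccl4, Ccl6 with Ccl9 and Ccl2 with Ccl7, each a pair of neighbours on chromosome 11, hold the highest values.

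The genes with the most similar pattern to each member were found over 62 class-by-tumor sums of 8 classes, among the 3072 more abundant genes. Ccl12 was most like Tmem119 (r = 0.93), Trem2 and C3ar1, Ccl3 most like Aif1 (0.89), and Ccl4 most like Cx3cr1 (0.89). Ccl6 was most like Clec4a2 (0.94) and Lyz2, Ccl9 most like Psap (0.94), Ccl2 most like Pid1 (0.92) and Ccl7 most like Ctsa (0.91). Ccl5 was most like Cd7 (0.91), Cd3e and Klrk1, Ccl8 most like Axl (0.77) and Ccl24 most like Lyz1 (0.78). Lyz2, Cd3e and Klrk1 are themselves gate markers, and sums of 1 tumor share a library.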

How the data were processed

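Single-cell 3' RNA was measured in 15 tumors of 15 mice, pooled by 3 and separated by multiplexing oligonucleotides. The authors deposited raw UMI counts per gene and cell for each tumor, made with Cell Ranger 6.1.2 on mm10 per the submitters' processing notes, which also name Seurat 4.3.0. Treatment was taken from the labels.

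Cells with 2500 to 27500 UMIs and at most 20% mitochondrial UMIs were kept (19533 of 30340, with 4014509 to 23726246 gene UMIs per tumor). Pools shared 94 cell barcodes. Cells were gated by distinct markers detected: epithelial-like at least 4 of 8, mononuclear phagocyte-like 6 of 10, neutrophil-like 5 of 8, dendritic-like 3 of 8, T-like 4 of 8, cytotoxic lymphocyte-like 4 of 10 (taken before T-like), B-like 5 of 8, endothelial-like 4 of 8 and fibroblast-like 5 of 8. Phagocytes with at least 4 of 6 macrophage markers were macrophage-like and those with at most 2 monocyte-like. Cells that passed several gates (686, among them doublets, for which no caller was run) or none (364) were set aside. Gate thresholds were set after the marker distributions had been seen, and 422 macrophage-like cells lay at the minimum of 4 markers. The members and all gene lists were chosen with earlier results of these data known.

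Counts were summed per tumor and class (at least 20 cells) and tested with edgeR 4.0.16 in R 4.3.3 (TMM, filterByExpr, two-sided quasi-likelihood F test, Benjamini-Hochberg over all genes tested, adjusted p under 0.05), with the tumor as a block between classes. The SE was the log2 fold change divided by the square root of F. Alternatives were DESeq2 1.42.0, RLE size factors, no filter on low counts, voom in limma 3.58.1 with pool as a random block, sums per pool, a stricter gate (1 more marker), at least 10 cells, cells thinned to 2500 UMIs and each pool left out in turn. Counts capped at 10 UMIs per cell and gene, the tumors rich in T-like cells left out of treatment comparisons, and pools left out at a minimum of 10 cells were chosen after seeing the data. The edgeR test was checked on simulated counts. Named were the 10 members, those of 14 receptors and 10 other CC ligands that passed a test, the members' receptors (1 is not reported here), and up to 3 genes most correlated with each member over class-by-tumor sums on the log2 scale, among genes averaging at least 50 CPM. Levels, intervals and figures were made in Python 3.11.15 with numpy 2.4.6, pandas 2.3.3, scipy 1.17.1 and matplotlib 3.10.9. Exact Poisson intervals at 95% cover counting error only. Sequences and gene coordinates came from RefSeq (GRCm38.p6) and GENCODE (GRCm38).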

Additional observations from a re-analysis of the deposited data

Results flagged for a closer look

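Of 52 groups of 4 to 10 tumors, 16 had 1 tumor far from the rest by Dixon's test at 95%. For separate groups of normally distributed values, chance gives this in about 1 in 20 groups. Levels were not transformed, and macrophage-like cells are part of the mononuclear phagocyte-like cells. The 16 flags can therefore not be set against that rate. All values are UMIs per 10000. In mononuclear phagocyte-like cells Ccl2 was at 8.79 in B20-4.1.1 pool 2 tumor 1 (other tumors of its group 2.61 to 5.12), Ccl7 at 3.09 in B20-4.1.1 pool 2 tumor 3 (0 to 1.22) and Ccl8 at 3.50 in B20-4.1.1 pool 1 tumor 3 (0 to 0.218). Ccl5 was at 3.30 in B20-4.1.1 pool 2 tumor 2 (0 to 1.29) and at 1.32 in isotype pool 2 tumor 1 (0.0571 to 0.184), and Ccl24 at 4.01 in isotype pool 2 tumor 2 (0 to 0.276).

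In macrophage-like cells Ccl3 was at 8.84 in B20-4.1.1 pool 2 tumor 2 (3.09 to 4.88) and Ccl5 at 4.35 in the same tumor (0.0499 to 1.49). In isotype pool 2 tumor 1 macrophage-like Ccl5 was at 0.341 (0.0765 to 0.172) and Ccl24 at 0.136 (0 to 0.0382).

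In T-like cells Ccl4 was at 1.16 in B20-4.1.1 pool 2 tumor 2 (0.109 to 0.557) and at 0.850 in isotype pool 2 tumor 1 (0.0708 to 0.146). In cytotoxic lymphocyte-like cells of isotype pool 2 tumor 1 Ccl3 was at 0.600 (0.0614 to 0.152) and Ccl4 at 3.73 (0.123 to 0.954). Cytotoxic lymphocyte-like Ccl4 was at 4.41 in B20-4.1.1 pool 1 tumor 3 (0.221 to 1.83), and Ccl5 at 34.5 in B20-4.1.1 pool 2 tumor 3 (2.52 to 14.4).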

How the results depend on the processing

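Of 507 chemokine values under an alternative, 412 kept their direction and side of the threshold, 26 lost and 14 gained a call, and 55 changed direction, none of them a member called by the test reported. The 20 shares of UMIs in mononuclear phagocyte-like cells moved by less than the SD between tumors. This limit was loose for Ccl24 (SD 42.4 percentage points), Ccl8 (31.9), Ccl7 (28.6) and Ccl12 (21.1), so the check says little for them. No paired analysis was possible because a pool held 1 treatment and pool numbers link no tumors across treatments. The treatment effect in monocyte-like cells and its difference from that in macrophage-like cells could not be run at 20 cells, for want of tumors. The cause of the changes below was not tested.

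Genes called for treatment in mononuclear phagocyte-like cells (5) were 39 with DESeq2, 35 with no filter, 3 under the stricter gate, and 0 with voom, with sums per pool and without the tumors rich in T-like cells. In macrophage-like cells (3) they were 32 with DESeq2, 64 with no filter, and 0 with sums per pool and thinned. In T-like cells (143) they were 489 with no filter, 227 with voom, 47 with sums per pool, 1 at 10 cells, and 0 under the stricter gate and without the T-rich tumors. In cytotoxic lymphocyte-like cells (3) they were 75 with no filter, 1 under the stricter gate, 5 without the T-rich tumors, and 0 with voom and thinned. In epithelial-like cells (1751) they were 36 with voom, 0 with sums per pool and 957 thinned. Macrophage-like against monocyte-like cells (768) gave 376 under the stricter gate, 1522 at 10 cells and 474 thinned, and cytotoxic against T-like cells (557) gave 264 under the stricter gate.

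With 1 pool left out the genes called ran from 0 to 540 in mononuclear phagocyte-like, 0 to 612 in macrophage-like, 0 to 398 in T-like, 0 to 18 in cytotoxic and 392 to 5513 in epithelial-like cells, from 339 to 705 between phagocyte classes and from 296 to 537 between lymphocyte classes. Members called ran from 0 to 3, 0 to 2, 0 to 0, 0 to 0, 0 to 2, 3 to 7 and 1 to 2 in that order. Members called with no filter were 2 in macrophage-like cells (main count 0). In epithelial-like cells (1) they were 2 with DESeq2 and 0 with no filter, voom, sums per pool, stricter gate and thinning. Between phagocyte classes (8) they were 5 with DESeq2 and 4 under the stricter gate, and between lymphocyte classes (2) 1 with DESeq2, 0 under the stricter gate and 1 capped.

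Direction changed as follows (log2 fold change). In mononuclear phagocyte-like cells Ccl6 was -4.08e-05 under the stricter gate and -0.251 without the T-rich tumors, Ccl7 0.157 thinned, Ccl9 0.0450 with voom, Ccl12 -0.177 with voom and -0.247 capped, and Ccl24 1.91 with voom and 1.11 capped. In macrophage-like cells Ccl4 was 0.178 with sums per pool, 0.0655 under the stricter gate, 0.000366 thinned and 0.000761 without the T-rich tumors. There Ccl6 was -0.113 without the T-rich tumors, Ccl9 0.0142 with sums per pool, 0.0201 under the stricter gate and 0.0963 thinned, and Ccl12 -0.255 with voom, -0.103 thinned and -0.283 capped. In cytotoxic cells Ccl4 was 0.302 with DESeq2, 0.0528 with voom, 0.0199 with sums per pool, 0.158 at 10 cells, 0.744 thinned and 0.240 capped. Between phagocyte classes Ccl7 was -0.647 under the stricter gate, -0.384 at 10 cells, -0.291 thinned and -0.272 capped.

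With 1 pool left out, values that changed direction ran in mononuclear phagocyte-like cells from -0.517 to 0.0974 for Ccl4, -0.740 to 2.02 for Ccl6, -0.558 to 0.159 for Ccl7, -0.585 to 0.643 for Ccl9, -0.304 to 0.543 for Ccl12 and -2.76 to 4.32 for Ccl24. In macrophage-like cells they ran from -0.733 to 0.0395 for Ccl3, -0.417 to 0.398 for Ccl4, -0.603 to 1.53 for Ccl6, -0.414 to 0.194 for Ccl9 and -0.253 to 0.250 for Ccl12. Ccl5 ran from -1.15 to 0.479 in T-like cells, Ccl4 from -0.364 to 1.79 in cytotoxic cells, Ccl2 from -0.506 to 0.00622 and Ccl4 from -1.44 to 0.215 in epithelial-like cells, and Ccl7 from -0.341 to 0.568 between phagocyte classes.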
